A study of Mus musculus with 6 samples.

Results

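The genes described here encode the chains of collagens and laminins, together with fibronectin (Fn1), fibulin 2 (Fbln2), perlecan (Hspg2), the nidogens (Nid1 and Nid2), agrin (Agrn) and SPARC (Sparc). Members were the protein-coding rows of the raw count table whose symbols have the form of a collagen chain (Col, a number, a, a number) or a laminin chain (Lama, Lamb or Lamc and a digit), plus those 7 named genes. Of 55487 genes in the table, 62 fitted this description, and 47 had at least 10 counts in at least 3 of the 6 libraries. The 47 comprised 9 of 11 fibrillar collagens, 17 of 21 basement membrane genes and 21 of 30 other matrix genes. The basement membrane class held the collagen IV and laminin chains, the nidogens, perlecan and agrin. Sparc, Fn1, Fbln2 and the remaining collagens were placed with the other matrix genes. Sparc and Col18a1 are thus in that class although their proteins also occur in basement membranes. All 47 were among the 17315 genes tested between genotypes. The measurement was bulk poly(A) RNA-seq of cells derived from mouse embryonic stem cells, with 3 libraries from cells of wild-type origin and 3 from cells of Ts1Cje origin. The Ts1Cje mouse, used to model Down syndrome, has a segmental trisomy of distal chromosome 16. In both groups the stem cells had been kept in serum replacement medium with LIF, and FGF2, BMP-4, activin A and VEGF were then applied for 4 days to induce primitive macrophage progenitors, the early yolk sac-type precursors of microglia. The labels give no strain and no sorting step, and they number the samples of each genotype as lots without saying whether these were separate lines, clones or cultures. The p-values therefore measure only how far these samples spread, possibly for technical reasons, and genotype and cell line cannot be told apart.

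Collagens are trimers of alpha chains. Fibrillar collagens pack into the fibres of connective tissue, whereas collagen IV forms the network of basement membranes, the thin sheets beneath epithelia and around vessels. Laminins are cross-shaped trimers of an alpha, a beta and a gamma chain, and nidogens and perlecan link the laminin and collagen IV networks. In the early mouse embryo, parietal and primitive endoderm lay down a basement membrane rich in collagen IV, SPARC and the Lama1, Lamb1 and Lamc1 chains, while migrating mesoderm moves on fibronectin.

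Total counts ran from 16577065 to 19010856 per library. The cell type labels could be set against marker genes only in part. Summed expression of 10 macrophage markers (3 tested) was 18.4 to 24.8 CPM (counts scaled to library size) in wild-type libraries and 28.3 to 30.8 CPM in Ts1Cje libraries. Of the 3 tested, 1 rose and 0 fell. The one that rose was Cd68, with 135, 70 and 72 counts in wild-type and 183, 160 and 127 in Ts1Cje. Csf1r had 296, 250 and 245 counts in wild-type and 331, 268 and 385 in Ts1Cje and was not called. Both Ptprc (the pan-leukocyte antigen CD45) and Cx3cr1 had 0 counts in all 6 libraries. Summed parietal and primitive endoderm markers (10 genes, all tested) were 598 to 769 CPM in wild-type and 1638 to 1898 CPM in Ts1Cje, and 8 of them rose while 1 fell. Summed mesoderm markers (10 genes, all tested) were 1513 to 1833 CPM in wild-type and 193 to 330.2 CPM in Ts1Cje, and 9 fell. Over all genes tested, 23.3% rose and 20.5% fell. These marker levels moved with genotype, as the matrix genes below did, and their part in the matrix results was not tested.

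Basement membrane genes were mostly higher in Ts1Cje libraries, and the other matrix genes were more often lower. EdgeR's quasi-likelihood test was run, and a gene was called at a Benjamini-Hochberg adjusted p of 0.05 over all 17315 genes. Of the 47 members, 19 rose and 17 fell in Ts1Cje, while 11 were not called. Over all genes tested, 43.8% were called, with 23.3% higher and 20.5% lower. The members' shares were 76.6% called, 40.4% higher and 36.2% lower. Values of the 2 genotypes did not overlap for 38 members, 20 higher and 18 lower in Ts1Cje, where 55.2% of all genes tested did not overlap (28.8% higher and 26.4% lower). At least 2-fold changes were called for 15 members that rose and 16 that fell (11.7% and 6.41% of all genes). The median log2 fold change over the 47 members was 0.10, beside −0.01 over all genes. Of 17 basement membrane genes, 13 rose, 3 fell and 1 was not called (median log2 fold change 1.24). Of 9 fibrillar collagens, 3 rose, 5 fell and 1 was not called (median −0.95). Of 21 other matrix genes, 3 rose, 9 fell and 9 were not called (median −0.83). In bulk RNA, fewer cells of a type and less RNA per cell cannot be told apart, which holds for each of these differences.

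**Figure D1:**
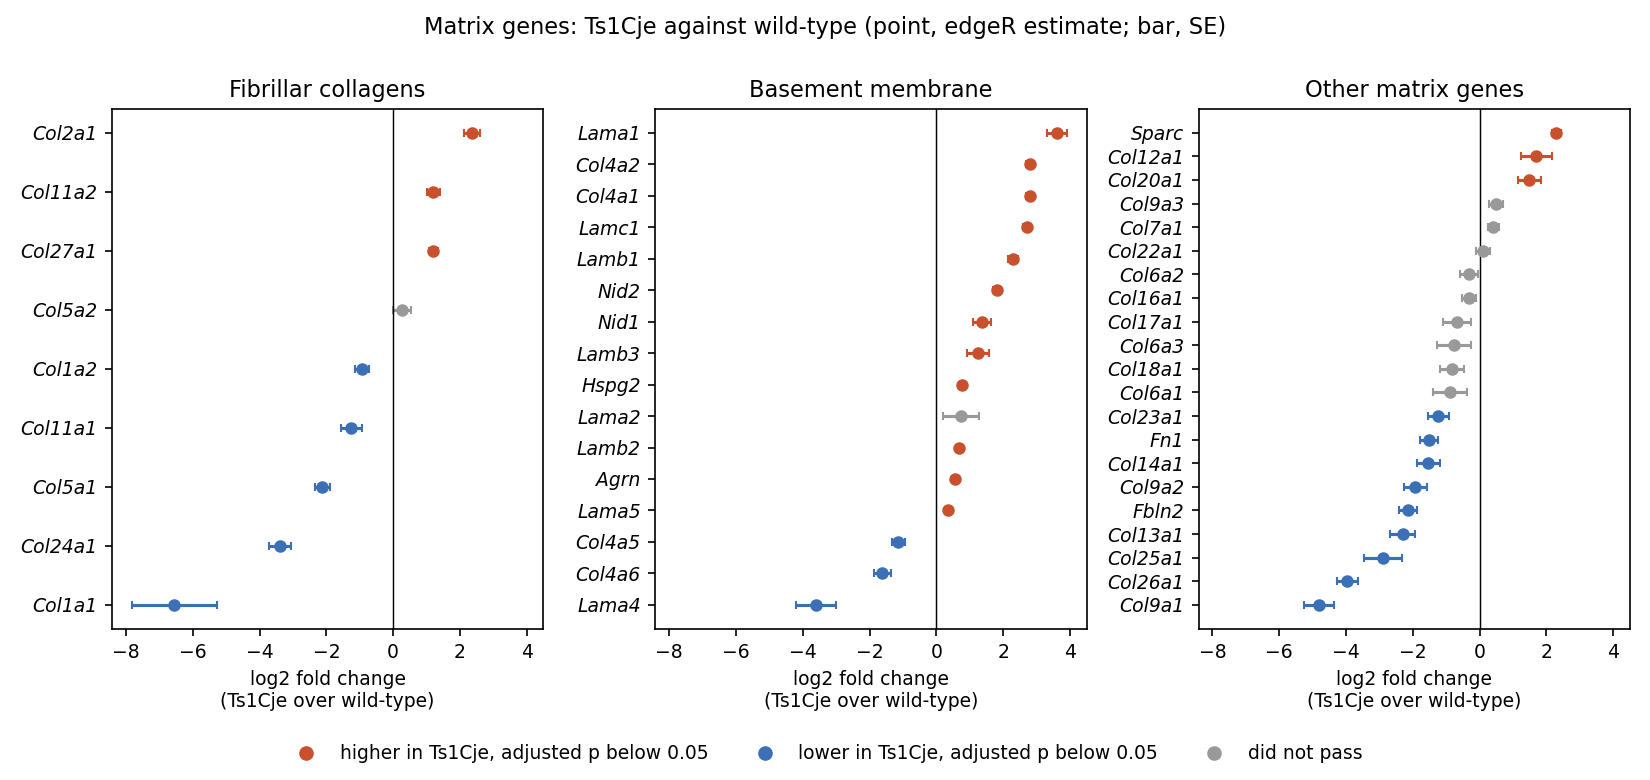
Log2 fold change (Ts1Cje over wild-type, edgeR) of 46 of the 47 members, by class, with bars of 1 SE; red points are called higher and blue points lower at an adjusted p of 0.05, and grey points are not called. Of the 16 basement membrane genes drawn 12 lie to the right of 0 and are called, whereas 9 of the 21 other matrix genes are called to the left of it.

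Of the kept members, 7 had fewer than 10 counts in at least 1 library, among them Col1a1, which passed only through its 3 wild-type libraries. Without these, 18 of 40 members rose and 14 fell, and the fibrillar collagens that fell went from 5 to 3. Of the 7 fibrillar collagens then left, 3 also rose, and their median log2 fold change was 0.27, beside −0.95 with all 9. Just inside the count rule stood Col6a3, a chain of beaded-filament collagen VI, with 16, 9 and 13 counts in wild-type and 4, 6 and 12 in Ts1Cje. Just outside it stood Col5a3, a collagen V chain, with 14, 6 and 4 counts in wild-type and 5, 13 and 7 in Ts1Cje. Col3a1, the abundant fibrillar collagen of skin and vessel walls, also failed the rule, with 6, 10 and 7 counts in wild-type and 1 in each Ts1Cje library. The other members left out were Col4a3, Col4a4, Lama3, Lamc3, Col6a4, Col6a5, Col6a6, Col8a1, Col8a2, Col10a1, Col15a1, Col19a1 and Col28a1.

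Summed over all 62 members (those under the count rule included) on the TPM scale, which corrects for gene length and library size, the basement membrane class was 5.23-fold higher in Ts1Cje. Its sum was 1412, 1282 and 1274 TPM in the wild-type libraries and 6568, 6222 and 7961 TPM in the Ts1Cje libraries. The lowest Ts1Cje library was thus far above the highest wild-type one. The fibrillar sum was 63.0, 83.5 and 100.4 TPM in wild-type and 42.3, 61.0 and 57.1 TPM in Ts1Cje, so the highest Ts1Cje library lay just under the lowest wild-type one on this scale. The other matrix genes summed to 1811, 1517 and 1541 TPM in wild-type and 2306, 2194 and 2660.4 TPM in Ts1Cje, 1.47-fold higher although more of these genes fell than rose. That sum turned on 2 genes, since Sparc made up 24.2% of it in wild-type and 81.3% in Ts1Cje, and Fn1 57.1% and 13.6%. Counted as reads, with no correction for gene length, the basement membrane class took 0.333% to 0.362% of all counts in wild-type and 1.54% to 1.97% in Ts1Cje. The other matrix genes took 0.403% to 0.509% of counts in wild-type and 0.356% to 0.382% in Ts1Cje, so on that scale they were lower in Ts1Cje without overlap, the reverse of their TPM sum. Fibrillar collagens took 0.0174% to 0.0268% in wild-type and 0.0130% to 0.0178% in Ts1Cje, which overlapped.

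**Figure D2:**
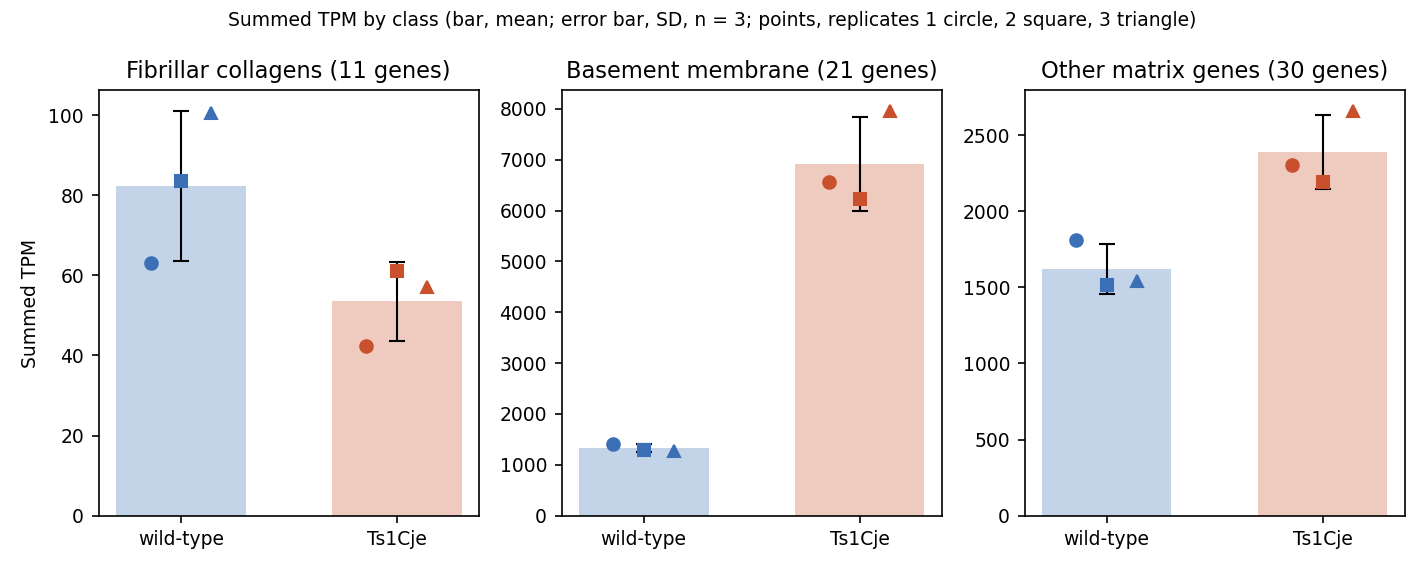
Summed TPM of each class in each library, with 1 point per library, bars at the mean of the 3 libraries of a genotype and error bars of 1 SD. The basement membrane sums of the Ts1Cje libraries (6222 to 7961 TPM) stand above all wild-type sums (1274 to 1412 TPM), and the fibrillar sums stay at or under 100.4 TPM.

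Among the laminin chains, 7 of 9 rose (77.8%, beside 23.3% of all genes tested), 1 fell (11.1%, beside 20.5%) and 1 was not called. The largest rise was that of Lama1. Lama1, the alpha chain of embryonic basement membranes (chromosome 17, 67697259 to 67822647, plus strand, mm10), had a level of 104, 59.3 and 52.9 TPM in wild-type and 842, 793 and 1004 TPM in Ts1Cje. All Ts1Cje libraries were far above the wild-type ones, among which replicate 1 was highest. The log2 fold change was 3.61 ± 0.30 (SE, n = 3 per genotype, adjusted p = 0.000374), a 12.2-fold difference. Lamb1, the beta chain that joins it (chromosome 12, 31265234 to 31329644, plus strand), was at 144, 106 and 99.99 TPM in wild-type and 555, 513 and 647 TPM in Ts1Cje. Groups did not overlap, and the log2 fold change was 2.29 ± 0.15 (adjusted p = 2.14e-05). Lamc1, the gamma chain shared by most laminins (chromosome 1, 153218922 to 153332786, minus strand), gave 131, 136 and 144 TPM in wild-type and 839.7, 814 and 1080.2 TPM in Ts1Cje. Its spread within a genotype was small beside the difference, a log2 fold change of 2.73 ± 0.12 (adjusted p = 1.59e-06). Ordered by TPM over all genes, Lama1 stood between places 1725 and 3557 in the wild-type libraries and between 93 and 134 in the Ts1Cje libraries.

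Lama5, the widespread alpha chain of later epithelia (chromosome 2, 180176373 to 180225859, minus strand), rose far less. Its level was 58.8, 64.6 and 69.7 TPM in wild-type and 82.3, 78.1 and 88.8 TPM in Ts1Cje, without overlap (log2 fold change 0.36 ± 0.09, adjusted p = 0.00752). Lama4, an alpha chain of vessels and mesenchyme, went the other way, from 3.42, 10.6 and 13.2 TPM in wild-type to 0.623, 1.00 and 0.659 TPM in Ts1Cje. Wild-type replicate 1 was the lowest of its group and still above all Ts1Cje libraries. The log2 fold change of Lama4 was −3.60 ± 0.61 (adjusted p = 0.00567), and it missed the threshold with limma-voom (adjusted p = 0.0511). Summed endothelial markers (9 genes, 7 tested), which moved the same way, were 481 to 611 CPM in wild-type and 69.4 to 138 CPM in Ts1Cje. Most of that sum was Kdr in every library, at 421, 434 and 472 CPM in wild-type and 66.3, 108 and 37.0 CPM in Ts1Cje. Of the 7 tested, 6 fell (85.7%, beside 20.5% of all genes tested). The part of these markers in the Lama4 result was not tested. The beta chains Lamb2 and Lamb3 rose from lower levels. Lamb2, a beta chain of mature basement membranes, changed by 0.67 ± 0.09 on the log2 scale (adjusted p = 0.000308). Lamb3, a beta chain of skin laminin, rose by 1.24 ± 0.34 (adjusted p = 0.014) at 0.422 to 2.12 TPM in all, and missed the threshold without Ts1Cje replicate 2 (adjusted p = 0.052). Lama2, the muscle alpha chain, was under 1 TPM and was not called (0.73 ± 0.53, adjusted p = 0.296).

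**Figure D3:**
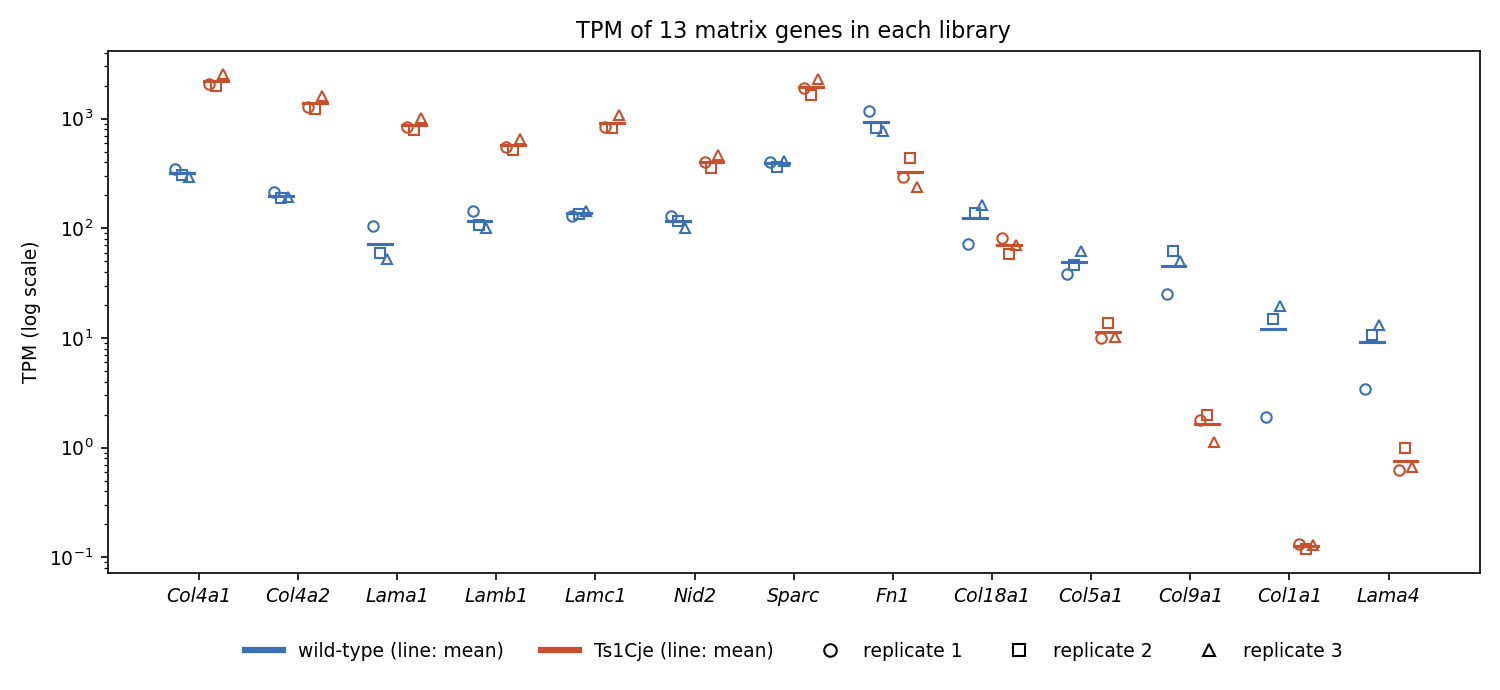
TPM on a log axis of 13 members in each library, with blue points for wild-type, red for Ts1Cje and lines at the mean of 3 libraries. Lama1, Lamb1, Lamc1, Col4a1, Col4a2 and Sparc are higher in all 3 Ts1Cje libraries, and Fn1, Lama4, Col5a1 and Col9a1 lower.

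The collagen IV chains split by gene pair. Col4a1 and Col4a2 encode the chains of the common collagen IV trimer and lie head to head on chromosome 8 (11198423 to 11312826, minus strand, and 11312805 to 11449287, plus strand), where their annotated starts share 22 bases. Col4a1 was at 348, 306 and 296 TPM in wild-type and 2092, 1972 and 2530.0 TPM in Ts1Cje. The groups were far apart and steady within themselves, with a log2 fold change of 2.79 ± 0.10 (adjusted p = 6.64e-07), or 6.91-fold. Col4a2 followed at 213, 187 and 192 TPM in wild-type and 1284, 1234 and 1617 TPM in Ts1Cje, again without overlap (2.80 ± 0.11, adjusted p = 8.92e-07, 6.94-fold). Col4a1 took places 366 to 424 among all genes in the wild-type libraries and 26 to 34 in the Ts1Cje libraries, and it made up 24.0% and 31.8% of the class sum. Counting strand is not given in the sources used here, so reads over the 22 shared bases cannot be assigned to 1 of the pair.

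Col4a5 and Col4a6, the X-linked chains of a collagen IV found in smooth muscle and some epithelia, fell. They also lie head to head, Col4a6 at 141165403 to 141474076 on the minus strand and Col4a5 at 141475385 to 141689234 on the plus strand, with 1308 bases between them. Col4a5 was at 5.24, 7.99 and 6.78 TPM in wild-type and 2.50, 3.37 and 3.27 TPM in Ts1Cje, and the groups did not overlap (−1.14 ± 0.20, adjusted p = 0.00124). Col4a6 was at 4.03, 6.86 and 6.23 TPM in wild-type and 1.86, 2.35 and 1.42 TPM in Ts1Cje, also without overlap (−1.62 ± 0.25, adjusted p = 0.000653). Even in wild-type libraries these chains stood at a small fraction of the Col4a1 level, so the class sum hardly holds them. The Col4a3 and Col4a4 pair, the chains of the kidney filter, failed the count rule.

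All 4 linkers and proteoglycans of the basement membrane rose, where 23.3% of all genes tested did. They rose by less than the laminin and collagen IV chains with the highest levels. Nid2, which bridges laminin and collagen IV, was at 129, 116 and 101 TPM in wild-type and 398, 352 and 464 TPM in Ts1Cje (1.80 ± 0.11, adjusted p = 7.46e-06). Nid1, the other bridging protein, was at 23.3, 37.1 and 36.9 TPM in wild-type and 66.1, 77.6 and 108 TPM in Ts1Cje (1.36 ± 0.27, adjusted p = 0.00912). Neither nidogen overlapped between genotypes. Perlecan, the large heparan sulfate proteoglycan encoded by Hspg2, gave 94.2, 92.6 and 108 TPM in wild-type and 185, 152 and 172 TPM in Ts1Cje (0.78 ± 0.10, adjusted p = 0.000223). Agrn, the proteoglycan that clusters receptors at the nerve-muscle junction, changed least of the 4, from 122, 117 and 110.0 TPM to 162, 169.6 and 184 TPM (0.56 ± 0.06, adjusted p = 8.96e-05). Of the 13 basement membrane genes that rose, Ts1Cje replicate 3 was the highest library for 11 and replicate 2 the lowest Ts1Cje library for 9.

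Promoter sequence was set beside these opposite changes for 7 members, shown because they include genes that rose (Lamb1, Nid1, Lama5), the divergent X-linked pair that fell (Col4a6, Col4a5), and the fallen collagens Col5a1 and Col9a1. They were chosen after their values were seen. Each sequence is the genomic strand of the gene, 5′ to 3′, from 250 bases upstream of the RefSeq start (GRCm38.p6), ending before any annotated exon. Capitals mark a GC box (GGGCGG) or a CCAAT box (CCAAT) on either strand; the other motifs searched on both strands were TATAAA, the GATA-type words AGATAA and TGATAA, and the SOX-type word AACAAT.
The stretches are chr12:31265043-31265233 (plus strand) for Lamb1, chr13:13437352-13437550 (plus) for Nid1, chr2:180225860-180226109 (minus) for Lama5, chrX:141474077-141474326 (minus) for Col4a6, chrX:141475169-141475384 (plus) for Col4a5, chr2:27886175-27886424 (plus) for Col5a1 and chr1:24177360-24177609 (plus) for Col9a1.
Lamb1: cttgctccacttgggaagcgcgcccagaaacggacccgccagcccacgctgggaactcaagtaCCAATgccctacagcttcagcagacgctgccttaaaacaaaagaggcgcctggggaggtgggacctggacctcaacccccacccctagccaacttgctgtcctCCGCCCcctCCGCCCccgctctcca
Nid1: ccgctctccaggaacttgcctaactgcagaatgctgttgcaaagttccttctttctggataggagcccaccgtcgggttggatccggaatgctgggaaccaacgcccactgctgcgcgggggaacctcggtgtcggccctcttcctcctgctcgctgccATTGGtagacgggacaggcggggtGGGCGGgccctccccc
Lama5: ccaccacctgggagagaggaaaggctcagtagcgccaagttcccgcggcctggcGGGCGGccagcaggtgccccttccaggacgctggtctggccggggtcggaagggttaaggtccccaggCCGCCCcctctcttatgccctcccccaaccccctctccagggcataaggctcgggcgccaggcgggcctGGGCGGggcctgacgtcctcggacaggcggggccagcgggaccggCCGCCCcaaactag
Col4a6: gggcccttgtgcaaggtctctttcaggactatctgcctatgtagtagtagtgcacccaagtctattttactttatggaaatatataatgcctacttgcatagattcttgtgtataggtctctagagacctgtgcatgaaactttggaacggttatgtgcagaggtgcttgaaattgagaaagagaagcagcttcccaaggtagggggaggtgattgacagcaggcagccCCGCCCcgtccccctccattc
Col4a5: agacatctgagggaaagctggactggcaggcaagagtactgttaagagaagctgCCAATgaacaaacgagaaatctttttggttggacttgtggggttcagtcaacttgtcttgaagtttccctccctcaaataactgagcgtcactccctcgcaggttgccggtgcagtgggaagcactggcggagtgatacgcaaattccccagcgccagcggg
Col5a1: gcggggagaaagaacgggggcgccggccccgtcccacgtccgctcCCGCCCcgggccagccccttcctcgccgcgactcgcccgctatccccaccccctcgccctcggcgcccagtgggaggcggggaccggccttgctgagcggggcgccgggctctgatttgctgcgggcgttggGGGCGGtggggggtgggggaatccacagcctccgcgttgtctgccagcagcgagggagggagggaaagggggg
Col9a1: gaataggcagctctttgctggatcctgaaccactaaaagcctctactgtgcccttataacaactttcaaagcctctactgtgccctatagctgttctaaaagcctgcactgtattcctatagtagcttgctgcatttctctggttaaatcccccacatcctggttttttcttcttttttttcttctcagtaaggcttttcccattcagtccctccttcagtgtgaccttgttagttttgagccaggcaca
Lama5 held 4 GC boxes, Lamb1 held 2 GC boxes and 1 CCAAT box, and Nid1 held 1 of each. Among the genes that fell, Col5a1 held 2 GC boxes, Col4a6 held 1, Col4a5 held 1 CCAAT box and Col9a1 held neither motif. Col4a5 has 1 more match, a GC box, in the bases trimmed from its printed stretch, and it is included in the counts that follow, which use untrimmed windows. RefSeq windows of 300 bases (250 before and 50 after the start) were matched for 33 of the 47 kept members. The RefSeq start nearest the deposited gene start was taken, with no limit on distance. It lay 94295 bases away for Lamb3, 49344 for Col25a1, 3103 for Sparc and 1408 for Col27a1, and these windows are in the counts. In the 250 bases before the start, a GC box stood in 8 of 13 windows of genes that rose and 9 of 12 of genes that fell, beside 32.7% of all 32851 windows. A CCAAT box stood in 4 of 13 and 4 of 12 (33.8% of all), a TATA box in 1 and 1 (12.4%), a GATA-type word in 1 and 0 (16.6%), and the SOX-type word in 0 and 0 (9.42%). Median GC content of these stretches was 62.0% for genes that rose, 60.4% for genes that fell and 52.4% over all windows. A match is one of letters only, and no printed matches of different motifs overlapped.

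Fibrillar collagens were low in both genotypes, and their leading chain changed. Col5a1, the chain that starts thin collagen fibrils, made up 59.3% of the fibrillar sum in wild-type and 21.2% in Ts1Cje. It was at 38.1, 46.6 and 61.8 TPM in wild-type and 10.01, 13.8 and 10.2 TPM in Ts1Cje, with no overlap (−2.13 ± 0.22, adjusted p = 0.00042). Col2a1, the cartilage collagen that notochord and early epithelia also make, went from 4.38% to 34.7% of the sum. Its level was 3.50, 3.96 and 3.35 TPM in wild-type and 11.96, 22.4 and 21.3 TPM in Ts1Cje (2.35 ± 0.23, adjusted p = 0.000145). All 3 Ts1Cje libraries stood above the wild-type ones. Col11a2, a chain that joins Col2a1 in cartilage fibrils, rose with it, at 4.06, 3.19 and 3.18 TPM in wild-type and 5.95, 9.90 and 8.22 TPM in Ts1Cje (1.20 ± 0.19, adjusted p = 0.000792). Its partner Col11a1 fell, from 1.14, 2.38 and 1.94 TPM to 0.947, 0.536 and 0.823 TPM (−1.25 ± 0.32, adjusted p = 0.01). Col27a1, a fibrillar collagen of cartilage, was at 6.004, 4.76 and 4.28 TPM in wild-type and 10.7, 10.7 and 13.2 TPM in Ts1Cje (1.20 ± 0.13, adjusted p = 8.83e-05). Summed cartilage and notochord markers (7 genes, 5 tested) were 14.99 to 17.6 CPM in wild-type and 14.6 to 20.6 CPM in Ts1Cje. Of the 5 tested, 3 rose and 1 fell (60.0% and 20.0%, beside 23.3% and 20.5% of all genes tested). The sum hid these changes, because Sox9, which was not called, had the most counts of the list in every library. Sox9 had 234, 179 and 195 counts in wild-type and 134, 167 and 140 in Ts1Cje. Shh rose from 2, 5 and 0 counts to 32, 91 and 126, and Noto from 2, 1 and 0 to 21, 31 and 26. The part of these markers in the Col2a1 result was not tested.

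The type I collagen chains, which make the main fibres of bone, tendon and skin, had lower levels in Ts1Cje. Col1a1 (chromosome 11, 94936224 to 94953042, plus strand) was at 1.90, 14.8 and 19.5 TPM in wild-type and 0.133, 0.119 and 0.129 TPM in Ts1Cje, or 5, 4 and 5 counts in Ts1Cje. Wild-type replicate 1 stood well below the other two, and all were above Ts1Cje. The log2 fold change was −6.55 ± 1.27 (adjusted p = 0.0112), and the call was lost without Ts1Cje replicate 1 (adjusted p = 0.0589), without Ts1Cje replicate 3 (0.0532) and in limma-voom (0.213). Col1a1 met the count rule only through its 3 wild-type libraries, so its fall is no separate support for lower fibrillar collagens. Col1a2 was much steadier, at 3.27, 2.85 and 2.56 TPM in wild-type and 1.06, 1.63 and 1.84 TPM in Ts1Cje (−0.95 ± 0.21, adjusted p = 0.00491). Col24a1, a fibrillar collagen of developing bone, fell from 3.87, 3.77 and 2.50 TPM to 0.482, 0.307 and 0.178 TPM (−3.38 ± 0.34, adjusted p = 4.27e-05). Col5a2, which joins Col5a1 in collagen V, was at 0.722, 0.890 and 1.13 TPM in wild-type and 0.930, 1.28 and 1.13 TPM in Ts1Cje and was not called (0.27 ± 0.26, adjusted p = 0.444). Fibroblast and feeder markers moved with the falling chains, with sums of 109.6 to 205 CPM in wild-type and 25.3 to 30.2 CPM in Ts1Cje. Of the 6 tested, 5 fell (83.3%, beside 20.5% of all genes tested). Part of that list was at or near 0 in both groups, with at most 3 counts of Dcn, 2 of Lum, 3 of Fap and 8 of Postn in any library. S100a4 was at 0 in all. Other genes of the list were well above 0. Pdgfrb had 741, 1875 and 2022 counts in wild-type and 58, 65 and 37 in Ts1Cje, and Tagln 709, 603 and 860 and 242, 239 and 377. The part of these genes in the collagen I result was not tested.

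Among the other matrix genes, the most abundant moved apart. Sparc, a collagen-binding glycoprotein of basement membranes (chromosome 11, 55394500 to 55423183, minus strand), was at 406, 359.6 and 415 TPM in wild-type and 1891, 1631 and 2303 TPM in Ts1Cje. Groups were far apart, with a log2 fold change of 2.30 ± 0.13 (adjusted p = 1.03e-05), or 4.91-fold. Fn1, the fibronectin gene (chromosome 1, 71585520 to 71653200, minus strand), was at 1177, 829 and 775 TPM in wild-type and 293, 439 and 239 TPM in Ts1Cje. It fell by 1.52 ± 0.27 on the log2 scale (adjusted p = 0.00722), or 2.88-fold, with the highest value in wild-type replicate 1 and no overlap. In the order of all genes by TPM, Fn1 held places 79 to 142 in wild-type and 278 to 584 in Ts1Cje, while Sparc held 289 to 336 and 30 to 44. Fbln2, a fibulin that binds fibronectin and laminin, fell from 10.5, 16.3 and 20.2 TPM to 2.72, 3.83 and 4.22 TPM (−2.14 ± 0.28, adjusted p = 0.000492).

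Fibril-associated collagens, which sit on the surface of fibrils, gave 2 genes that rose and 3 that fell among 8. The 25.0% that rose was near the 23.3% of all genes tested, and the 37.5% that fell stood beside 20.5%. Col9a1, a cartilage chain, fell the most of all members after Col1a1. It was at 25.1, 61.6 and 49.8 TPM in wild-type and 1.79, 2.00 and 1.13 TPM in Ts1Cje (−4.81 ± 0.46, adjusted p = 0.000482, 28.1-fold lower). The lowest wild-type library, replicate 1, was still far above the highest Ts1Cje one. Col9a2, its partner in the collagen IX trimer, fell less, from 4.31, 7.94 and 10.8 TPM to 2.09, 1.76 and 2.24 TPM (−1.93 ± 0.35, adjusted p = 0.00155). Col9a3, the remaining partner, was at 6.18, 4.88 and 4.86 TPM in wild-type and 5.49, 8.81 and 8.03 TPM in Ts1Cje and was not called (0.48 ± 0.21, adjusted p = 0.0861), but passed without Ts1Cje replicate 1 (adjusted p = 0.0249). The chains of collagen IX thus did not move together. Col14a1, a collagen of skin and tendon, fell by 1.53 ± 0.33 on the log2 scale (adjusted p = 0.00531). The fibril-associated members that rose had low levels. Col20a1 was at 0.691, 0.983 and 0.568 TPM in wild-type and 1.63, 1.71 and 2.96 TPM in Ts1Cje (1.48 ± 0.34, adjusted p = 0.00607). Col12a1, a collagen of tendon and fascia, had only 9, 9 and 11 counts in wild-type and 46, 13 and 35 in Ts1Cje (1.70 ± 0.47, adjusted p = 0.0152). It met the count rule mainly through Ts1Cje, where it was higher, since only replicate 3 of wild-type reached 10 counts. Its call was lost without wild-type replicate 2 (adjusted p = 0.0557) or Ts1Cje replicate 1 (0.074), and with limma-trend on log2(TPM + 1) (0.124) or log2(TPM + 0.1) (0.073). Col16a1 and Col22a1 were not called (−0.32 and 0.09 on the log2 scale, adjusted p = 0.225 and 0.743).

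Of 4 transmembrane collagens, which span the cell membrane rather than build fibres, 3 fell (75.0%, beside 20.5% of all genes tested). Col13a1, found at cell adhesion sites, went from 44.4, 36.1 and 39.5 TPM in wild-type to 7.06, 13.1 and 4.41 TPM in Ts1Cje (−2.31 ± 0.37, adjusted p = 0.00409). Col23a1 was at 29.0, 24.4 and 21.3 TPM in wild-type and 7.11, 16.6 and 8.23 TPM in Ts1Cje (−1.24 ± 0.32, adjusted p = 0.0218). That call did not hold without wild-type replicate 1 (adjusted p = 0.0756), wild-type replicate 2 (0.0507) or Ts1Cje replicate 3 (0.073), nor without the low-count filter (0.101). Col25a1, a neuronal transmembrane collagen, fell from 75, 54 and 26 counts to 7, 11 and 2 (−2.88 ± 0.57, adjusted p = 0.00287). It met the count rule mainly through wild-type, where it was higher, since only replicate 2 of Ts1Cje reached 10 counts. Col17a1, the hemidesmosome collagen of skin, had at most 20 counts and was not called (−0.67, adjusted p = 0.215). Col26a1, a small collagen first found in testis and ovary, had the smallest adjusted p among the other matrix genes that fell. It was at 14.5, 19.7 and 19.3 TPM in wild-type and 0.727, 1.84 and 0.931 TPM in Ts1Cje (−3.96 ± 0.31, adjusted p = 5.12e-05).

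Col18a1, the basement membrane collagen that carries endostatin, was split by 1 library. It was at 72.2, 137 and 163 TPM in wild-type and 81.8, 57.8 and 70.8 TPM in Ts1Cje, so wild-type replicate 1 lay among the Ts1Cje values. With all libraries it was not called (−0.83 ± 0.35, adjusted p = 0.117), and without wild-type replicate 1 it passed as lower (−1.12, adjusted p = 0.00253). None of the 3 collagen VI chains, the beaded filaments around cells, was called by edgeR at an adjusted or an unadjusted p of 0.05, nor by DESeq2 or limma-voom. Col6a1 was at 2.52, 4.89 and 6.83 TPM in wild-type and 0.998, 3.65 and 3.17 TPM in Ts1Cje (−0.89 ± 0.52, adjusted p = 0.209), and passed as lower without the low-count filter (adjusted p = 0.0117). Col6a2 and Col6a3 gave log2 fold changes of −0.31 and −0.76 (adjusted p = 0.389 and 0.26). Col7a1, the anchoring fibril collagen, gave 0.40 ± 0.16 (adjusted p = 0.0737), and passed as higher without wild-type replicate 1 (adjusted p = 0.0153).

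Ratios of partner chains on the TPM scale showed which pairs kept their proportion. They are given as a description, with no test. Col4a1 to Col4a2 was 1.63, 1.64 and 1.54 in wild-type and 1.63, 1.598 and 1.56 in Ts1Cje, so this pair kept its ratio while both chains rose. Lama1 to Lama5 went from 1.77, 0.917 and 0.759 to 10.2, 10.2 and 11.3, so these alpha chains were near parity in wild-type and Lama1 led in Ts1Cje. Lamb1 to Lamc1 was 1.10, 0.782 and 0.692 in wild-type and 0.661, 0.630 and 0.599 in Ts1Cje, slightly lower without overlap. Col5a1 to Col5a2 fell from 52.7, 52.3 and 54.7 to 10.8, 10.7 and 8.9996, with little spread in either group. Col1a1 to Col1a2 was 0.579, 5.204 and 7.62 in wild-type (mean 4.47, SD 3.58) and 0.126, 0.0728 and 0.0701 in Ts1Cje. Wild-type replicate 1 was far below the rest of its group. Col4a5 to Col4a6 was 1.30, 1.16 and 1.09 in wild-type and 1.34, 1.43 and 2.30 in Ts1Cje. Ratios of Nid1 to Nid2 (0.180 to 0.364 in wild-type, 0.166 to 0.233 in Ts1Cje) and Col6a1 to Col6a2 (2.87 to 5.80 and 1.28 to 3.62) overlapped between genotypes.

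**Figure D4:**
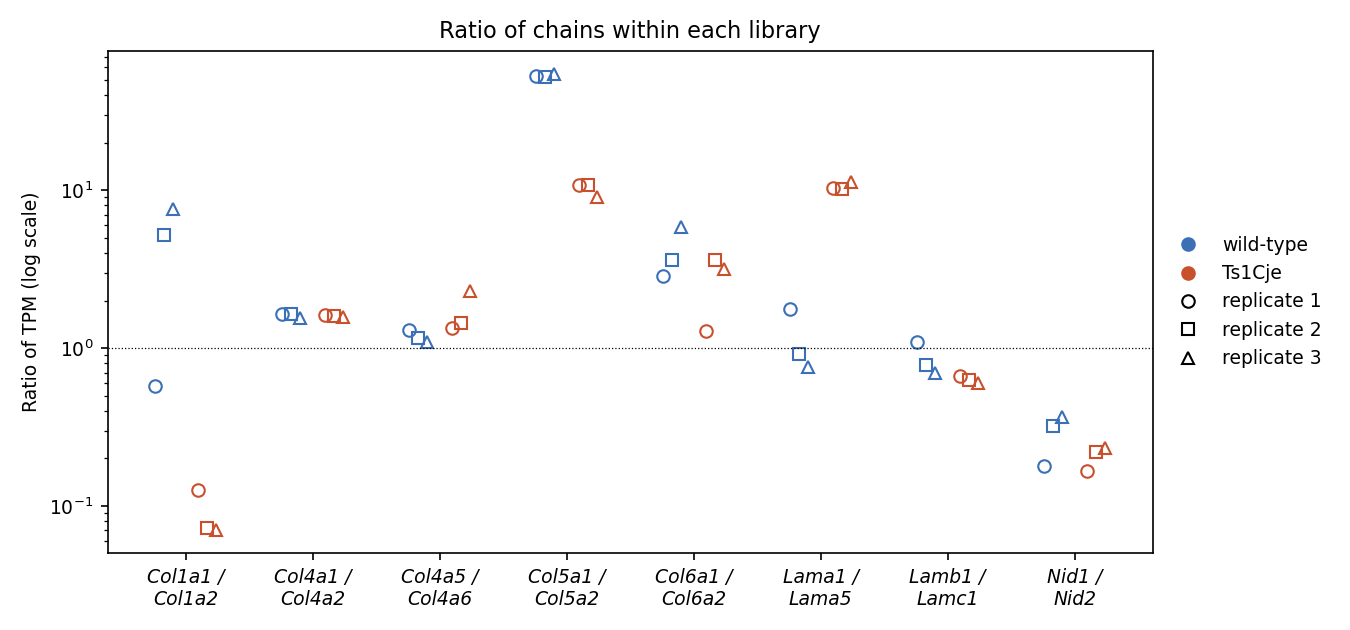
Ratio of the TPM of partner chains in each library, on a log axis, with 1 point per library, blue for wild-type and red for Ts1Cje. Col4a1 to Col4a2 lies at 1.54 to 1.64 in all 6 libraries, whereas Lama1 to Lama5 lies at 10.2 to 11.3 in Ts1Cje and at 0.759 to 1.77 in wild-type.

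None of the 47 members lies in the segment of chromosome 16 that is triplicated in Ts1Cje. To place each change in its chromosomal setting, the median log2 fold change of tested genes within 5 Mb on either side was taken. For all but 4 of the members it lay between −0.18 and 0.27. Those 4 were Col24a1 (neighbours' median −0.49), Lama5 and Col20a1 (both −0.70) and Col9a3 (−0.70). Around Col24a1, which fell, 28 of 43 tested neighbours also fell and 5 rose. Around Lama5, 40 of 81 tested neighbours fell and 7 rose, and around Col20a1, on the same chromosome end, 39 of 75 fell and 7 rose, although both members rose. Around Col9a3, which was not called, 40 of 79 fell and 7 rose. Reads over an overlapping gene bear on a few members, since the counting strand is not given. On the opposite strand, Nid2 overlaps Rtraf (15740 counts over all libraries), Fn1 overlaps Apol7d (9156), Col4a2 overlaps Gm15419 (6590) and Col18a1 overlaps Slc19a1 (3205). On the same strand, Col20a1 overlaps 9230112E08Rik (399 counts over all libraries), and counting by strand would not separate that pair. Col20a1 itself had 20, 29 and 17 counts in wild-type and 48, 45 and 90 in Ts1Cje, so its call may be affected. For 78.7% of the kept members no overlapping gene reached 50 summed counts.

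The enzymes and chaperones that make collagen mostly rose. Of 16 tested genes for collagen modification and folding, 9 rose (56.3%, beside 23.3% of all genes tested) and 1 fell (6.25%, beside 20.5%), with a median log2 fold change of 0.56. Serpinh1, the collagen chaperone HSP47, was at 429.96, 476 and 546 CPM in wild-type and 954, 930.4 and 1160 CPM in Ts1Cje (1.07 ± 0.11). P4hb, the beta subunit of prolyl 4-hydroxylase, rose by 0.84 ± 0.06 and Colgalt1, which adds galactose to hydroxylysine, by 0.76 ± 0.09. Ppib, a prolyl isomerase that helps fold collagen, was not called (0.10, adjusted p = 0.245). Genes for secretion, processing and cross-linking were mixed, with 4 of 18 higher (22.2%, near the share over all genes) and 6 lower (33.3%, median −0.20). Pxdn, the peroxidase that cross-links collagen IV, rose by 0.15 on the log2 scale at an adjusted p of 0.0489, and Sec23a, a coat protein for collagen export, by 0.35. Mia3 and Mia2, receptors that load collagen into export carriers, were not called (−0.06 and 0.17).

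Genes that organise fibrils and elastic fibres were more often lower in Ts1Cje. Of 14 tested, 8 fell (57.1%, beside 20.5% of all genes tested) and 0 rose by edgeR (beside 23.3%), with a median of −0.99. By edgeR 1 was higher at an unadjusted p under 0.05. At the adjusted threshold 1 was higher by DESeq2 and 0 by limma-voom. Fbn2, a fibrillin of embryonic microfibrils, was at 150.2, 227 and 273 CPM in wild-type and 27.2, 47.7 and 32.9 CPM in Ts1Cje (−2.59 ± 0.31). Fbln1, another fibulin, fell by 0.89 ± 0.15 and Mfap2, a microfibril protein, by 1.09. Of 13 tested matrix proteases and inhibitors, 5 were higher (38.5%, beside 23.3% of all genes), although only 3 were without Ts1Cje replicate 1. In the other direction 3 were lower (23.1%, near the 20.5% of all genes), and the median was 0.46. Mmp2, the gelatinase that cleaves collagen IV, fell by 2.04 ± 0.32, and Mmp14, which activates it, by 0.42 ± 0.09, while Mmp11, a protease first known from tumour stroma, rose by 1.38 ± 0.10. Mmp15 was not called (0.31, adjusted p = 0.183). Among 14 tested non-integrin matrix receptors, 5 rose and 5 fell (35.7% each, beside 23.3% and 20.5% of all genes). The median was 0.06, and 3 rose without Ts1Cje replicate 3. Gpc3 fell by 1.36 ± 0.09 while Gpc4 rose by 3.88 ± 0.22, and both are glypicans, heparan sulfate proteoglycans anchored to the membrane. Sdc4, a syndecan that binds fibronectin, rose by 1.72 ± 0.12, and Dag1, the dystroglycan gene whose product binds laminin, was not called (0.19, adjusted p = 0.0547).

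**Figure D5:**
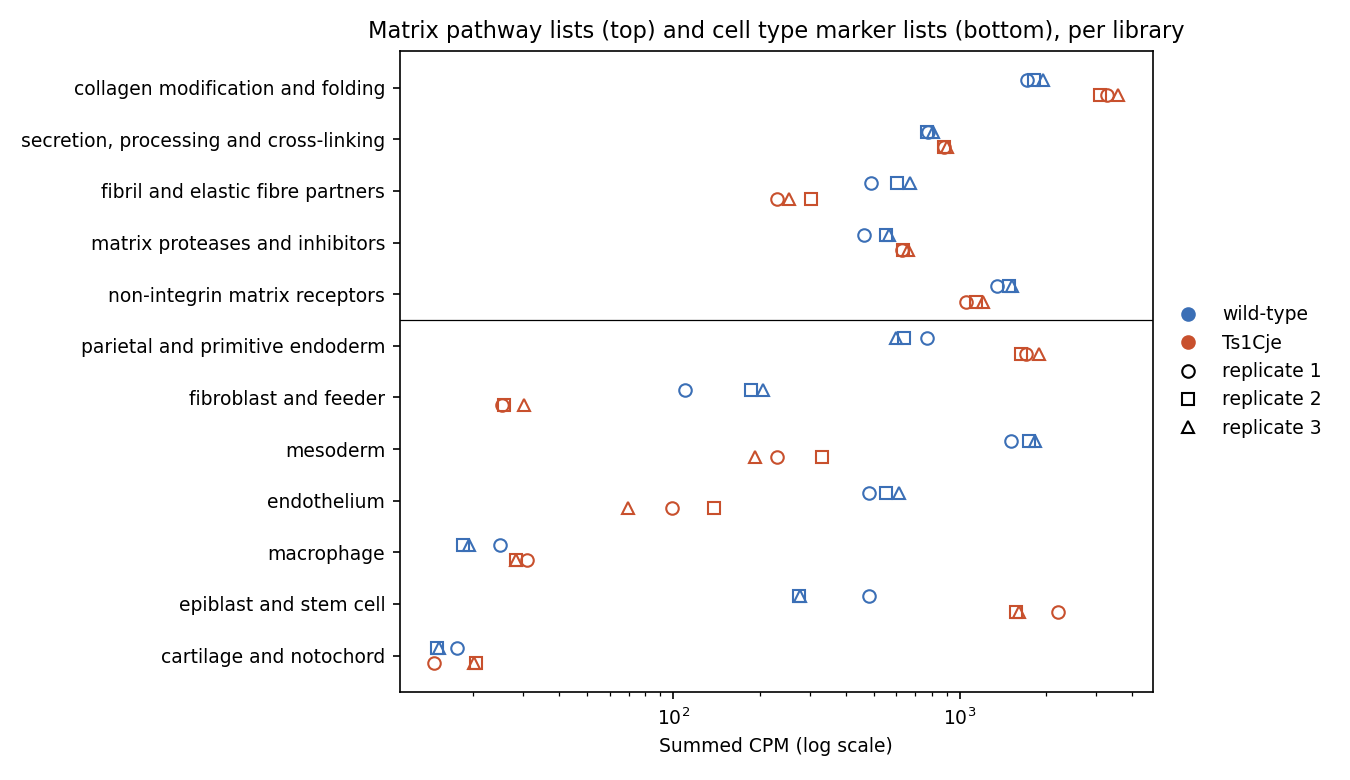
Summed CPM on a log axis of the 5 matrix pathway lists (top) and the 7 cell type marker lists (bottom), with 1 point per library, blue for wild-type and red for Ts1Cje. Endoderm marker sums lie at 1638 to 1898 CPM in Ts1Cje and at 598 to 769 CPM in wild-type, and mesoderm marker sums at 193 to 330.2 CPM and 1513 to 1833 CPM.

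Marker lists for cell types that could be present moved strongly with genotype. Of the parietal and primitive endoderm markers, Gata4, Pth1r and Dab2 rose by 0.55, 2.80 and 2.48 on the log2 scale, and Sox7 fell. All 8 epiblast and stem cell markers rose, beside 23.3% of all genes tested. Their sums were 276 to 482 CPM in wild-type and 1566 to 2208 CPM in Ts1Cje. Among the fibroblast and feeder markers, Tagln, Acta2 and Pdgfrb fell by 1.32, 2.98 and 4.82. The part of these marker changes in the collagen and laminin results was not tested.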

How the data were processed

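Members were found in the deposited count table by symbol, and they and the companion and marker lists were chosen with earlier results of these data known. What the authors deposited is a table of raw counts by Ensembl gene and one of TPM. The submitters' processing notes list the genome mm10, featureCounts 1.6.3, HISAT2 2.1.0, Trimmomatic 0.38 and FastQC 0.11.7. Per the labels' protocols, libraries came from poly(A) selection and a directional kit; counting strand and multi-mapping are not stated in what was used, so closely related or overlapping genes may share reads.

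Counts were tested with edgeR 4.0.16 (R 4.3.3): filterByExpr (minimum count 10, minimum total count 15), TMM scaling and the robust quasi-likelihood test over all 17315 genes, with no covariate, after checks on simulated data. All adjusted p-values are from this fit (Benjamini-Hochberg, threshold 0.05) unless a sentence names another. Log2 fold changes have Ts1Cje in the numerator; their SE, approximate, is their size divided by the root of the F statistic. Levels between genes are in the deposited TPM, and CPM are TMM-scaled. Errors of fold changes are SE, with 3 libraries per genotype.

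Values in every library are given for the 4 members of each class with the highest mean TPM, the 3 called members with the smallest adjusted p in each direction, and their partner chains. From a companion list at most the 4 genes with the highest mean TPM are named, and from a marker list at most 3. A few further members have per-library values that were chosen after they were seen, as were Sox7, the fibroblast genes near 0 and the macrophage genes at 0. One member is counted with its class but is not reported here. Alternatives were DESeq2 1.42.0, limma 3.58.1 (voom, and trend on log2 TPM), other scalings and filters, each library left out, and the lot number as a block. Promoter sequences and starts are RefSeq's (GRCm38.p6). Coordinates of all 62 members are those of the deposited table and were identical to GENCODE M21.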

Additional observations from a re-analysis of the deposited data

How the results depend on the processing

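Over up to 15 alternatives, 31 of the 36 called members stayed past the threshold in the same direction wherever they were tested. The other 5 (Col1a1, Lama4, Lamb3, Col12a1, Col23a1) lost the call under the settings given with their values. Of the 17 basement membrane genes, 12 to 13 rose and 3 fell when a library was left out, and 13 rose and 2 to 3 fell otherwise. Over all members, 18 to 20 rose in either case, and 15 to 17 (library left out) or 14 to 17 (otherwise) fell. Over all genes, 3355 to 4260 rose and 2684 to 3782 fell without 1 library. Fibrillar collagens that fell numbered 3 rather than 5 once members needed 10 counts in all 6 libraries, because fewer genes were then counted. Col22a1, not called, ranged from −0.031 (without Ts1Cje replicate 3, the sign change) to 0.227 (without Ts1Cje replicate 1) around 0.09.

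Fibril and elastic fibre partners that rose numbered 1 with DESeq2, 2 with no filter, 1 with the replicate block and 0 to 2 with a library left out. With a library left out, proteases and inhibitors that rose numbered 3 to 6, receptors that rose 3 to 5, and modification and folding genes that fell 0 to 2; the cause was not tested. Lot numbers do not show that samples were paired: deviations of same-numbered samples correlated at 0.219, 0.0589 and 0.202, although every sample correlated best with its own number. With lot number as a replicate block, 20 members rose and 17 fell, and the calls that changed were Col23a1 (adjusted p = 0.0502, lost), Col6a1 (0.00751, lower) and Col7a1 (0.0481, higher). Levels under about 1 TPM rest on few counts, and 3 libraries per genotype limit every comparison.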
